A study of Mus musculus with 6 samples.

Results

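The genes described here encode the TGF-beta, BMP, GDF and activin ligands, their receptors, the proteins that bind the ligands outside the cell, and the SMAD proteins. Members were chosen by gene name alone, and 52 of the 16494 genes in the table had such a name. They comprised 3 TGF-beta ligands, 7 BMP ligands, 6 GDF ligands, 3 activin and inhibin subunits, 6 type I receptors, 4 type II receptors, the co-receptor Tgfbr3, 8 secreted antagonists, 4 latent TGF-beta binding proteins, 4 receptor SMADs, Smad4 and 2 inhibitory SMADs. A further 3 members carried a family name without being classical ligands or receptors. Bmp1 encodes the procollagen C-proteinase, Fstl1 encodes a secreted follistatin-like glycoprotein, and Bmp2k encodes an intracellular kinase. The counts came from single-cell RNA sequencing of the lower abdominal muscle, or LAM. Male FVB/N mice 9 to 10 weeks old were used, 3 of them wild-type (WT) and 3 Aromhum (Arom). Arom mice carried the human aromatase gene CYP19A1 with its own regulatory region, and their samples were labelled with scrotal hernia. The transgene was not restricted to a cell type by a mouse driver, so local aromatase, circulating steroid and the hernia itself could not be told apart. Each mouse gave 1 library, and the mouse was the replicate throughout.

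Ligands of this family bind pairs of type I and type II receptor kinases at the cell surface. TGF-beta and activin receptors mainly phosphorylate SMAD2 and SMAD3, BMP receptors mainly phosphorylate SMAD1 and SMAD5, and both sets enter the nucleus with SMAD4. TGF-beta is secreted in a latent form tethered to the matrix by latent TGF-beta binding proteins, whereas BMPs and activins are held in check by secreted antagonists such as noggin, gremlin, chordin and follistatin. In skeletal muscle, TGF-beta is best known for driving fibroblasts to deposit collagen, and BMPs for supporting muscle mass.

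Promoter sequence is shown for the activin subunit gene Inhba and the BMP antagonist gene Grem1, which were higher in Arom fibroblast-like cells, and for the ligand genes Gdf10 and Bmp4, which were lower. Each stretch is the 250 bases before the RefSeq start of the gene in GRCm38.p6, printed 5′ to 3′ on the strand of the gene. Capitals mark GGTCA, which is an arm of the estrogen response element, and CAGAC, the core of the SMAD-binding CAGA box, on either strand. Inhba lay on the plus strand at chr13:16011601-16011850, Grem1 on the minus strand at chr2:113758649-113758898, Gdf10 on the plus strand at chr14:33923337-33923586, and Bmp4 on the minus strand at chr14:46390670-46390919.
Inhba: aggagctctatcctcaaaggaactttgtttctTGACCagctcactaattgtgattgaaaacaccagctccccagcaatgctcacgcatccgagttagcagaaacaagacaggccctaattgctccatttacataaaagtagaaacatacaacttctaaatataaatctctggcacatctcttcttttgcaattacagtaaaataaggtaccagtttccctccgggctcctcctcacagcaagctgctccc
Grem1: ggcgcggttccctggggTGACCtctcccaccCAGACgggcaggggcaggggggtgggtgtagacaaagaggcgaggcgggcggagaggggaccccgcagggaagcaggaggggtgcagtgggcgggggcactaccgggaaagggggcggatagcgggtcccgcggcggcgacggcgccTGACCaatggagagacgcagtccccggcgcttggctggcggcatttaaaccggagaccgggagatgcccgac
Gdf10: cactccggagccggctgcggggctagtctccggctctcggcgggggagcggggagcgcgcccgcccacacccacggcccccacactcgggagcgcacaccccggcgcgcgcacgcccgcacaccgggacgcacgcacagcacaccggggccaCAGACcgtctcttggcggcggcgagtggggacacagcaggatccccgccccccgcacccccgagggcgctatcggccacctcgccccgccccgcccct
Bmp4: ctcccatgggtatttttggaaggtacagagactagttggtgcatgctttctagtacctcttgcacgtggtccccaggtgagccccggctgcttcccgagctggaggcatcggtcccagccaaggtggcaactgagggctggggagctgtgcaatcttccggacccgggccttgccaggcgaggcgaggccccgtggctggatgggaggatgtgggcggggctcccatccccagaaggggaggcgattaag

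The Inhba promoter held 1 GGTCA and the Grem1 promoter held 2, and neither Gdf10 nor Bmp4 held any in this window. CAGAC occurred 1 time in Grem1 and 1 time in Gdf10. The Grem1 window also held GGCGCC, a GC-rich element bound by BMP SMADs. The full estrogen response element, which is GGTCA, any 3 bases and then TGACC, was in none of the 4 windows, and each full element also counts as a GGTCA. Among the 32851 mouse promoters of the same length, 35.2% held GGTCA, 42.2% held CAGAC, 9.59% held GGCGCC, 0.167% held the palindrome GTCTAGAC and 0.0639% held the full estrogen response element. Member promoters on chromosome 18, where Smad2, Smad4 and Smad7 lie, were left out, while the 32851 promoters were not filtered in this way. Of the 43 member promoters used, from 34 members, 14 held GGTCA, 21 held CAGAC, 9 held GGCGCC, and 0 held either of the other 2 motifs. GGTCA also occurred before Fstl3 and Gdf15, which were lower in Arom mice in some fibroblast subgroups, and before Tgfb1, which was higher. It did not occur before Tgfbr2, which was higher. No promoter was at hand for Nog, Chrdl2, Bmp1 and Tgfb3. These matches are letters in a window and were not tested for binding.

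The table held 63647 barcodes, 7905 to 10820 in each WT library and 8979 to 13764 in each Arom library. Human CYP19A1 had 0 UMIs (unique molecular identifiers, each 1 captured transcript tag) in all 3 WT libraries and 770, 797 and 787 UMIs in the Arom libraries, as labelled. Library totals were 64958237 to 72876541 UMIs in WT and 92652109 to 111826460 in Arom mice. Median UMIs per barcode were 4728.5 to 5897 in WT and 6673 to 8727 in Arom, and the share of barcodes above 5% mitochondrial UMIs was 38.0% to 68.2% in WT and 27.6% to 30.9% in Arom. Of 63175 distinct barcode sequences, 471 occurred in more than 1 library. Fibroblast-like cells were 3507, 2441 and 1621 in WT1 to WT3 and 4883, 6741 and 3490 in Arom1 to Arom3. Their 8 collagen, decorin and other marker genes summed to 46320 to 53240 counts per 1000000 UMIs (CPM) in each mouse, against 240 to 672 CPM in endothelial cells. A level below is the CPM of the UMIs summed over the cells of 1 type in 1 mouse, and it is not divided by transcript length because the 3′ protocol tags 1 end of each transcript. Values of single mice are given in the order WT1, WT2, WT3 and then Arom1, Arom2, Arom3. A difference is the log2 fold change of Arom over WT with its SE, n = 3 mice per genotype, and adjusted p comes from the quasi-likelihood test of edgeR, corrected by Benjamini-Hochberg over all genes of that cell type. For a gene that passed, a lack of overlap between genotypes describes its values and is not separate support.

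Fibroblast-like cells, lymphatic endothelium, mesothelium and vascular mural cells each carried a different portion of the pathway. Among 11 cell types with enough cells, fibroblast-like cells had the highest mean level of 15 members, lymphatic endothelial cells of 8, mesothelial cells of 6, smooth muscle and pericytes of 6, endothelial cells of 5, glial cells of 4, and the others of 3 or fewer. These levels describe clusters built from the same cells, so no test was made between types. With only the barcodes inside the study's fixed limits on genes, UMIs and mitochondrial share (18852 barcodes, its further removal of outliers not applied), 42 of the 52 members kept the same highest type, and fibroblast-like cells led for 11. The 3 TGF-beta ligands had their highest mean CPM in different types, while fibroblast-like cells held 64.5% of all Tgfb2 UMIs in WT and 82.0% in Arom mice and 45.1% and 62.2% of those of Tgfb3. Tgfb1 was highest in lymphatic endothelial cells, at 322 ± 11.3 CPM (SD, n = 6 mice), and was next at 293 ± 22.9 CPM in macrophages and 266 ± 29.5 CPM in dendritic cells. Lymphatic cells exceeded macrophages in 6 of 6 mice, but macrophages were highest with the study's limits. Tgfb2 was 199 ± 51.1 CPM in muscle stem cells and myoblasts (MuSC/myoblast) and 170 ± 52.1 CPM in fibroblast-like cells, a gap within the spread. Tgfb3 was 175 ± 55.9 CPM in smooth muscle and pericytes against 37.3 ± 11.2 CPM in fibroblast-like cells, the next type, and was 196 ± 64.2 CPM in the contractile smooth muscle cluster. The smooth muscle and pericyte level of Tgfb3 changed with the clusters and barcodes kept. It was 83.6 CPM when clusters with markers of 2 types, left out here by a rule set after the data were seen, were kept as well, 88.5 CPM with the study's limits and 74.9 CPM with those limits except the upper one on genes, still the highest of the types.

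Bmp4, Bmp6 and Gdf15 had their highest mean outside fibroblast-like cells under each choice of clusters and barcodes for which types were ranked. Types were not ranked with the column blocks described below. Bmp4 was 208 ± 60.5 CPM in mesothelial cells and 158 ± 31.8 CPM in endothelial cells. Within the endothelium it was 231 ± 83.4 CPM in venular and 59.1 CPM in capillary cells, whereas Bmp6 had the opposite order, at 9.64 and 67.7 CPM. Bmp6 was also 47.5 ± 16.6 CPM in MuSC/myoblast cells and exceeded the endothelial level there in only 3 of 6 mice. Bmp2 reached 93.4 ± 10.5 CPM in smooth muscle and pericytes and 80.8 ± 20.8 CPM in fibroblast-like cells, which overlapped, and it was highest in fibroblast-like cells with the clusters of 2 types kept or without the upper limit on genes. Gdf15, a stress-induced ligand, was 972 ± 217 CPM in lymphatic cells and 1008 ± 305 CPM in arterial endothelial cells, against 65.1 CPM in capillary and 31.1 CPM in venular cells, and its lymphatic level was 599.8 CPM with the study's limits. Gdf10 was 24.4 ± 12.4 CPM in fibroblast-like cells, and 41.2 CPM with the study's limits. Grem1 had a mean of 0.874 ± 1.08 CPM in fibroblast-like cells, 0.695 ± 1.47 CPM in smooth muscle and pericytes and 0.402 ± 0.619 CPM in mesothelial cells. Fibroblast-like cells exceeded smooth muscle and pericytes in 2 of 6 mice, and their Grem1 level was 0.188 CPM with the study's limits.

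Endothelial cells had the highest mean level of 3 receptor genes, Acvr1b, Acvrl1 and Bmpr2, and of both inhibitory SMAD genes. Acvrl1, the endothelial type I receptor for BMP9 and BMP10, was 169 ± 20.8 CPM in endothelial cells, above the next type, lymphatic cells at 74.9 ± 13.6 CPM, in 6 of 6 mice. Bmpr2, the type II BMP receptor, was 203 ± 34.2 CPM in endothelial cells, again above lymphatic cells in 6 of 6 mice. The inhibitory SMADs were also highest there, with Smad7 at 235 ± 25.3 CPM and Smad6 at 16.3 ± 5.28 CPM, although with the clusters of 2 types kept Smad7 was highest in smooth muscle and pericytes. Tgfbr2, the type II TGF-beta receptor, was 373 ± 40.6 CPM in lymphatic and 312 ± 147 CPM in fibroblast-like cells, and these overlapped. Tgfbr1 was 69.4 ± 16.7 CPM in smooth muscle and pericytes and 60.3 ± 9.01 CPM in fibroblast-like cells, and its smooth muscle and pericyte level was 135.7 CPM with the study's limits and 98.6 CPM without the upper one on genes. The co-receptor Tgfbr3 was 188 ± 21.1 CPM in fibroblast-like cells, above glial cells in 6 of 6 mice.

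Among the genes of antagonists, latent TGF-beta binding proteins and follistatin-like proteins, Fstl1 and Ltbp4 had the highest levels. Fstl1 reached 1234 ± 291 CPM in fibroblast-like cells against 326 ± 146 CPM in smooth muscle and pericytes. Fst, which encodes the activin antagonist follistatin, was 321 ± 114 CPM in fibroblast-like cells and 83.5 ± 36.7 CPM in smooth muscle and pericytes, and its fibroblast-like level was 500.7 CPM with the study's limits. Ltbp4 was 951 ± 133 CPM in lymphatic and 544 ± 146 CPM in fibroblast-like cells. Ltbp1 was highest in fibroblast-like cells, at 141 ± 11.4 CPM. Ltbp3 was 177.9 ± 29.45 CPM in mesothelial and 146 ± 14.6 CPM in fibroblast-like cells, with mesothelial cells higher in 6 of 6 mice. Ltbp2 was 10.6 ± 16.1 CPM in mesothelial and 6.17 ± 3.62 CPM in fibroblast-like cells, with mesothelial cells higher in only 2 of 6 mice. Nog (noggin) was highest in fibroblast-like cells at 43.2 ± 34.3 CPM, Chrdl1 in mesothelial cells at 104 ± 73.9 CPM, Chrdl2 in MuSC/myoblast cells at 177 ± 80.1 CPM and Fstl3 in glial cells at 48.7 ± 7.56 CPM. Smad3 was 46.4 ± 20.3 CPM in T cells and 33.9 ± 14.7 CPM in MuSC/myoblast cells. The large SDs of Nog, Chrdl2 and Inhba, which was 230 ± 234 CPM in fibroblast-like cells, span both genotypes. With the study's limits Inhba was 69.5 CPM in fibroblast-like cells, the highest type of Nog was myonuclei at 8.77 CPM, and Inhbb, Chrd and Gdf6 were no longer highest in fibroblast-like cells. Without the upper limit on genes Inhba and Inhbb were highest in T cells, at 259.7 and 47.7 CPM. Those T cell means were over only 4 mice, with the genotypes unequal in number, so this ranking is not like for like.

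The 3 members with the highest mean CPM were Fstl1, Ltbp4 and Fst in fibroblast-like cells, Ltbp4 (331 CPM), Gdf15 and Smad7 in endothelial cells, and Fstl1, Gdf15 (238 CPM) and Tgfb3 in smooth muscle and pericytes. In lymphatic endothelial cells they were Gdf15 (972 CPM), Ltbp4 (951 CPM) and Tgfbr2 (373 CPM). In MuSC/myoblast cells they were Ltbp4 (218 CPM), Tgfb2 and Chrdl2, and in myonuclei Fstl1 (126 CPM), Ltbp4 (80.2 CPM) and Tgfbr2 (45 CPM). Mesothelial cells had Ltbp4 (376 CPM), Fstl1 (212 CPM) and Bmp4, and glial cells had Fstl1 (256 CPM), Ltbp4 (186 CPM) and Tgfbr3 (126 CPM). Immune cells differed in having Tgfb1 among their top members. It led in macrophages, before Fstl1 (133 CPM) and Tgfbr2 (120 CPM), and in dendritic cells, before Fstl1 (77.4 CPM) and Acvrl1 (59.8 CPM). In T cells it was 163 CPM, beside Fstl1 (204 ± 218 CPM) and Smad7 (168 CPM). The spread of Fstl1 there came with fibroblast marker sums of 214 to 22450 CPM across the 6 mice. Fstl1 per 1000 fibroblast marker UMIs was 25.1, 23.6 and 29.7 in Arom T cells and 28.8, 29.6 and 32.7 in Arom fibroblast-like cells. The part of fibroblast RNA in these levels of immune cells was not tested.

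**Figure D1:**
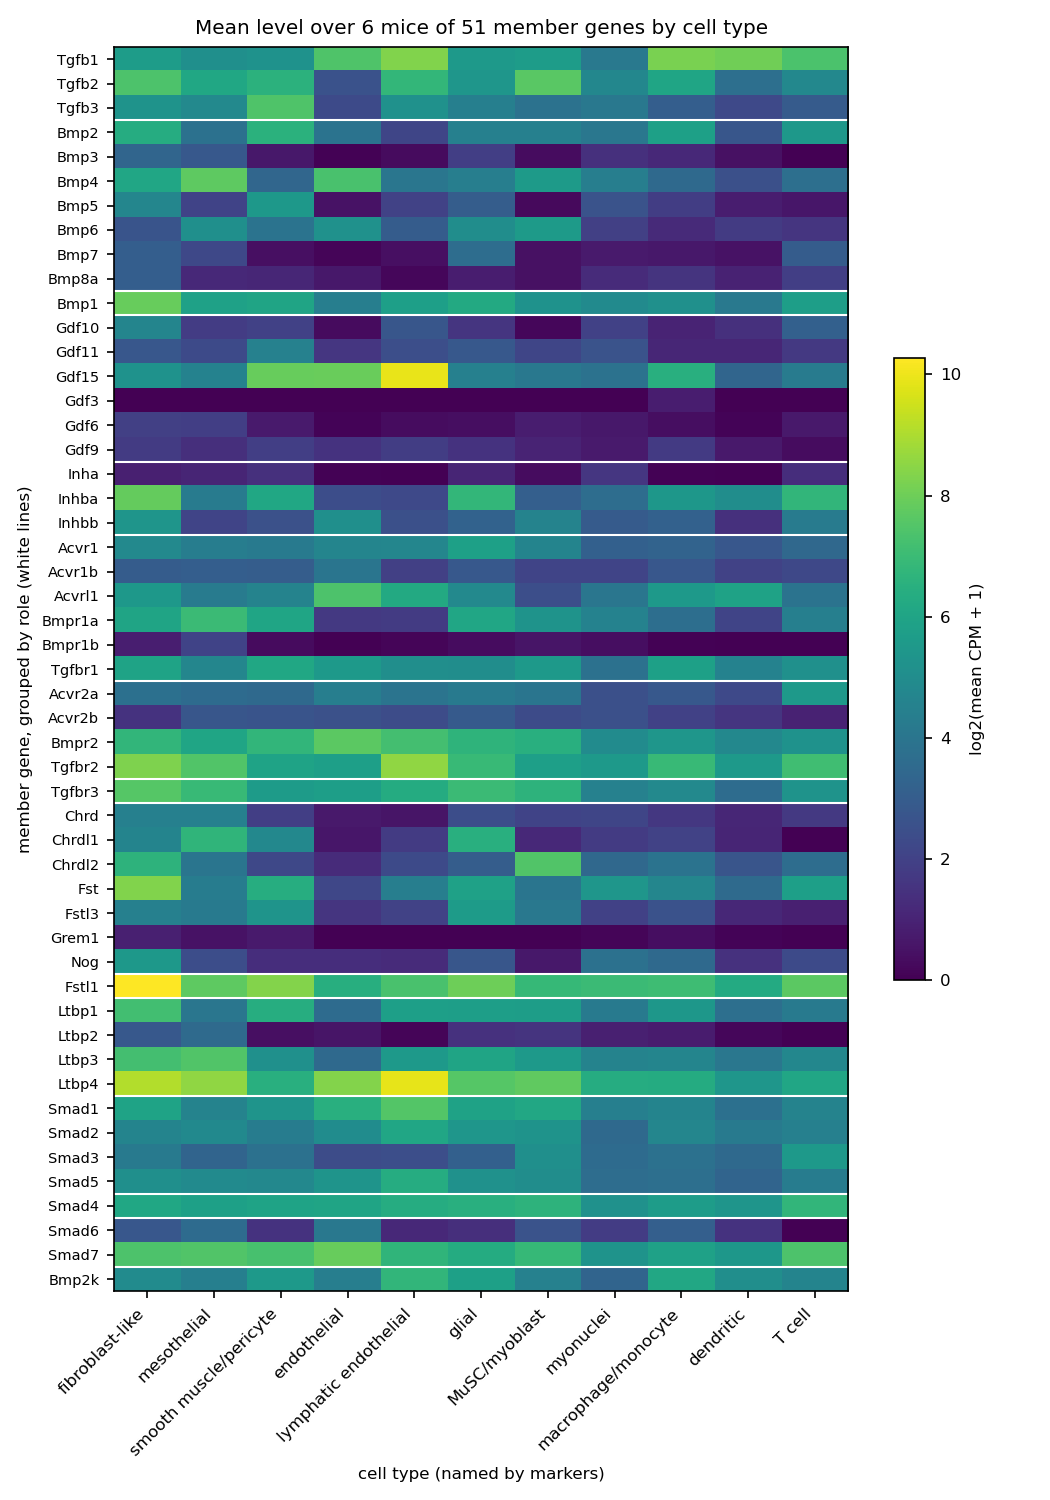
Level of 51 members (vertical, grouped by role) in 11 cell types (horizontal), as the colour of log2 of the mean CPM over 6 mice plus 1. Fstl1 at 1234 CPM in fibroblast-like cells and Gdf15 at 972 CPM in lymphatic endothelial cells are among the brightest squares, and Acvrl1 at 169 CPM and Bmpr2 at 203 CPM are brightest in the endothelial column.

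In fibroblast-like cells the activin subunits, noggin and the type II TGF-beta receptor were higher in Arom mice, and Bmp4, Gdf10, Tgfb3 and Smad6 were lower. Of 51 members tested, 12 passed the test, 8 higher and 4 lower. The 8 include Grem1, which met the filter on low counts only through the Arom mice. Over all 13978 genes tested, 12.9% passed, 7.14% higher and 5.76% lower, and the members were not tested against other genes. The median difference was 0.06 over the members and 0.0001 over all genes tested. Gdf3 was the only member with too few counts to test.

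Both activin beta subunits rose. Inhba, which encodes the beta A subunit of activin A, was 57.6, 48.0 and 46.1 CPM in WT and 585, 452.5 and 190.9 CPM in Arom mice. Every Arom mouse exceeded every WT mouse, and the mean was 8.09 times the WT mean (log2 difference 3.02 ± 0.42, adjusted p = 0.0195). Inhbb, the beta B subunit gene, was 21.3, 21.7 and 13.9 CPM in WT and 62.3, 91.0 and 28.9 CPM in Arom mice (1.67 ± 0.42, adjusted p = 0.0458). Arom3 was the lowest of the Arom mice for both genes. Fst, the gene for their antagonist, was 521, 294 and 308 CPM in WT and 356, 273 and 177 CPM in Arom mice, the groups overlapped, and it did not pass (−0.49 ± 0.34, adjusted p = 0.355). Fstl3, another activin antagonist gene, did not pass either (−0.36 ± 0.18, adjusted p = 0.205).

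Among TGF-beta ligands, Tgfb1 rose and Tgfb3 fell. Tgfb1 was 37.0, 38.8 and 42.4 CPM in WT and 62.6, 55.2 and 66.8 CPM in Arom mice, with no overlap (0.63 ± 0.09, adjusted p = 0.0195). Tgfb3 was 38.1, 49.3 and 49.9 CPM in WT and 25.1, 24.0 and 37.6 CPM in Arom mice (−0.68 ± 0.17, adjusted p = 0.044). Its highest Arom mouse, Arom3, lay just under the lowest WT mouse. Tgfb2 was 155, 114 and 132 CPM against 221, 246 and 152 CPM and did not pass (0.62 ± 0.23, adjusted p = 0.109).

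Of 12 BMP and GDF ligands tested, Bmp4 and Gdf10 passed, both lower in Arom mice. Bmp4, a ligand of the BMP branch, was 85.4, 109 and 86.3 CPM in WT and 27.8, 23.9 and 61.2 CPM in Arom mice (−1.34 ± 0.32, adjusted p = 0.0414). The mice did not overlap, and Arom3 was nearest to WT. Gdf10, also known as BMP3B, was 28.4, 39.3 and 37.3 CPM in WT and 12.2, 18.1 and 11.2 CPM in Arom mice, with Arom3 here the lowest (−1.33 ± 0.21, adjusted p = 0.021). Bmp5 was 26.9, 53.0 and 33.7 CPM against 9.42, 7.05 and 22.7 CPM and missed the threshold (−1.56 ± 0.43, adjusted p = 0.0557), as did Bmp8a (1.63 ± 0.47, adjusted p = 0.0616). Bmp2 and Bmp6 differed by −0.16 ± 0.25 and −0.27 ± 0.24.

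The secreted BMP antagonists Nog and Grem1 rose. Nog was 10.8, 14.3 and 11.2 CPM in WT and 67.9, 75.9 and 79.1 CPM in Arom mice, which is 6.16 times the WT mean (2.61 ± 0.12, adjusted p = 0.000828), and the gap between genotypes was far wider than the spread within either. Grem1 had 0 UMIs in every WT mouse and 169, 107 and 54 UMIs in Arom mice, or 2.61, 1.53 and 1.11 CPM. Against a floor of 3 UMIs over the WT group it was at least 41.5-fold higher (adjusted p = 0.0204), although its level was low in every mouse. Grem1 met the filter on low counts only through the Arom mice, so its adjusted p is not separate support for the difference. Chrdl2, which encodes a chordin-like antagonist, was 53.2, 6.78 and 9.05 CPM in WT and 220, 194 and 102 CPM in Arom mice. The groups were separate, but WT1 lay well above the other 2 WT mice and the gene did not pass (2.85 ± 0.83, adjusted p = 0.0625). Chrdl1 (−0.07 ± 0.15, adjusted p = 0.772) did not pass.

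Of 11 receptor and co-receptor genes, only Tgfbr2 passed in this cell type. It was 197, 207 and 169 CPM in WT and 468, 507 and 324 CPM in Arom mice, 2.27 times the WT mean (1.18 ± 0.21, adjusted p = 0.0242). Its partner Tgfbr1 was 68.7, 63.8 and 64.9 CPM in WT and 43.2, 58.8 and 62.6 CPM in Arom mice and did not pass (−0.28 ± 0.14, adjusted p = 0.195). Tgfbr3 differed by −0.09 ± 0.14, Bmpr2 by −0.24 ± 0.10 and Acvrl1 by −0.33 ± 0.15, none past the threshold.

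Of the extracellular handlers, Bmp1 and Fstl1 rose. Bmp1, whose protease trims procollagen and releases ligands from chordin, was 181, 161 and 160 CPM in WT and 339, 334 and 217 CPM in Arom mice (0.82 ± 0.21, adjusted p = 0.047). Fstl1 was 847, 1141 and 973 CPM in WT and 1533, 1379 and 1531 CPM in Arom mice (0.58 ± 0.13, adjusted p = 0.0373). None of the 4 latent TGF-beta binding protein genes passed, with Ltbp1 at 0.07 ± 0.11, Ltbp2 at 0.99 ± 0.44, Ltbp3 at 0.21 ± 0.08 and Ltbp4 at −0.43 ± 0.20. Of the SMAD genes only Smad6 passed. It encodes an inhibitor of BMP receptors and was 9.05, 7.08 and 7.30 CPM in WT and 3.60, 4.15 and 4.09 CPM in Arom mice (−1.0 ± 0.16, adjusted p = 0.021). Smad7 differed by −0.25 ± 0.22 and Smad3 by 0.38 ± 0.12, neither past the threshold.

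**Figure D2:**
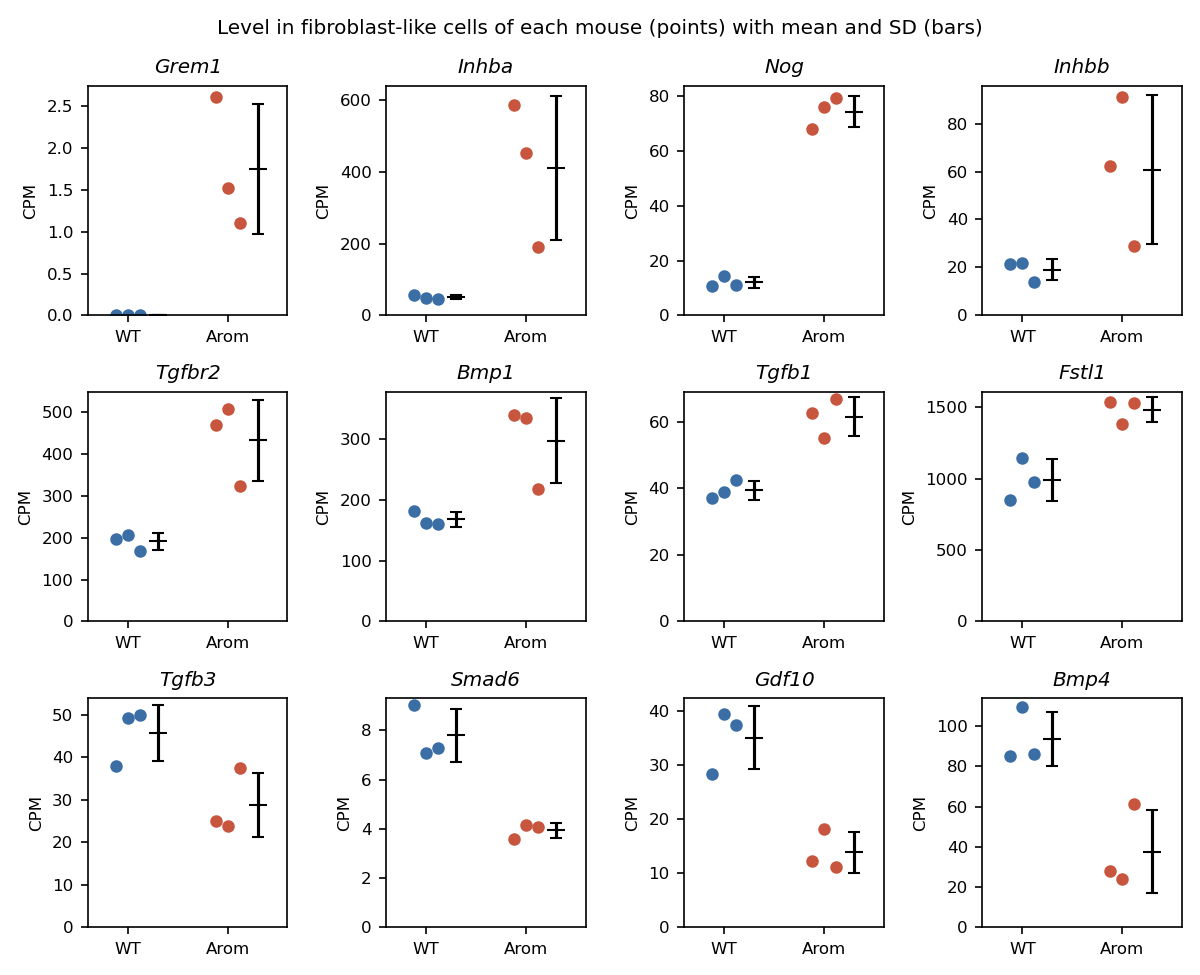
CPM of the 12 members that passed the test in fibroblast-like cells, 1 panel per gene with 1 point per mouse, WT on the left and Arom on the right, and bars for the mean and SD of 3 mice. Inhba is at 46.1 to 57.6 CPM in WT and 190.9 to 585 CPM in Arom mice, and Nog at 10.8 to 14.3 CPM against 67.9 to 79.1 CPM.

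The number of calls changed when single mice were left out. Without Arom3, 27 members passed, and without Arom1, Arom2, WT1, WT2 or WT3 the number was 1, 2, 2, 1 and 1, with Nog passing in all 6 refits. The share of all genes passing in each refit is not given here, so these counts are not a result about the members. The same holds below for each count from a refit or alternative fit that has no such share beside it. With only the barcodes inside the study's limits, 0 members passed by the same edgeR test, where 0.00921% of all genes passed and 1853 genes had an unadjusted p under 0.05.

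The make-up of the fibroblast-like population differed between genotypes. The study names hernia-associated fibroblasts (HAF), a subgroup with high Esr1 and a subgroup with high Mmp3. Esr1-hi HAF were 322, 168 and 125 cells in WT and 1458, 1877 and 690 cells in Arom mice, and Mmp3-hi HAF were 24, 1 and 1 against 711, 1249 and 8 cells. Angptl1/Prg4 cells were 18.5%, 21.5% and 19.2% of fibroblast-like cells in WT and 2.72%, 2.97% and 10.1% in Arom mice. With both HAF subgroups left out, 5 members passed, where 2.2% of genes tested passed. Tgfbr2 (1.43 ± 0.24, adjusted p = 0.0356), Fstl1 (0.91 ± 0.15, adjusted p = 0.0346) and Grem1 (adjusted p = 0.0356) were still higher and Gdf10 still lower (−1.29 ± 0.16, adjusted p = 0.0272), and Acvr2b also passed. Grem1 again met the filter on low counts only through the Arom mice. Nog then differed by 0.31 ± 0.19 (adjusted p = 0.346), Tgfb1 by 0.14 ± 0.14, Inhbb by −0.28 ± 0.20, Inhba by 1.36 ± 0.32 (adjusted p = 0.0628) and Bmp4 by −0.75 ± 0.20 (adjusted p = 0.0806). Smad6 differed by −0.72 ± 0.19 (adjusted p = 0.0776) and Tgfb3 by −0.51 ± 0.16 (adjusted p = 0.111). Bmp1 did not pass either, although its difference of 1.01 ± 0.24 (adjusted p = 0.0657) was larger than with the HAF subgroups kept.

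Within the Esr1-hi HAF subgroup, 15 of 50 members tested passed, 8 higher and 7 lower in Arom mice, where 13.4% of all genes tested passed (6.28% higher and 7.15% lower). The subgroup held different clusters in each genotype. The cluster with most of its WT cells held 284, 154 and 113 cells in WT and 29, 63 and 117 in Arom mice. The other 2 held 37, 14 and 12 against 1026, 1132 and 357 cells, and 1, 0 and 0 against 403, 682 and 216 cells. At a coarser clustering resolution of 0.4, where the WT subgroup had 58, 10 and 7 cells, 0 members passed. A difference within the subgroup therefore cannot be told apart from a difference in which of its cells each genotype had.

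Apart from Grem1, the activin subunit genes had the largest log2 differences. Inhba was 116.2, 18.6 and 35.1 CPM in WT and 973, 917 and 384 CPM in Arom cells (3.71 ± 0.68, adjusted p = 0.0174), and Inhbb was 20.6, 36.8 and 22.8 against 127, 200.2 and 59 CPM (2.31 ± 0.46, adjusted p = 0.0208). Nog was 60.6, 101.4 and 64.0 CPM in WT and 153, 175 and 241 CPM in Arom cells (1.34 ± 0.23, adjusted p = 0.0145). Tgfbr2, Bmp1, Tgfb1, Bmp8a and Grem1 were also higher, by 1.81 ± 0.25, 1.39 ± 0.19, 0.60 ± 0.16 and 1.80 ± 0.42 for the first 4. Grem1 had 0 UMIs in WT cells and 5.39, 3.11 and 2.14 CPM in Arom cells, and met the filter on low counts only through Arom cells.

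Ligand, antagonist and inhibitory SMAD genes were among those lower in Arom cells. Bmp4 was 46.5, 74.5 and 57.9 CPM in WT and 11.4, 9.69 and 19.2 CPM in Arom cells (−2.15 ± 0.27, adjusted p = 0.00522). Tgfb3 was 90.0, 127 and 110 CPM against 25.7, 29.3 and 46.3 CPM (−1.69 ± 0.22, adjusted p = 0.00597). Neither gene's groups overlapped. Both inhibitory SMAD genes were lower, Smad6 by −1.47 ± 0.21 and Smad7 by −0.73 ± 0.15. Fstl3 (−1.28 ± 0.21), Ltbp3 (−0.67 ± 0.17) and the chordin gene Chrd (−0.67 ± 0.18) completed the list. Leaving out 1 mouse gave 5 to 19 calls, the fewest without WT3 and the most without Arom3, and Bmp4, Tgfb3, Smad6, Tgfbr2 and Bmp1 passed in all 6 refits.

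The Tppp3/Smoc2 fibro-adipogenic progenitors (FAP), the resident mesenchymal progenitors of muscle, gave 11 calls among 46 members tested, 6 higher and 5 lower, where 5.66% of all genes passed (3.11% higher and 2.55% lower). Inhba was 35.5, 42.7 and 46.9 CPM in WT and 365, 160 and 140 CPM in Arom cells (2.44 ± 0.33, adjusted p = 0.00368). Tgfbr2 was 199, 229 and 201 against 464, 484 and 376 CPM (1.10 ± 0.14, adjusted p = 0.00341). Gdf10 was 39.6, 45.5 and 49.1 against 17.2, 20.0 and 19.2 CPM (−1.23 ± 0.12, adjusted p = 0.000795). The 2 genotypes were separate for each of these 3 genes, and all 3 passed in every refit without 1 mouse, where the count of calls ran from 3 without Arom2 to 13 without Arom3. Bmp4 was lower too, at 131, 136 and 110 CPM in WT and 65.3, 73.3 and 90.7 CPM in Arom cells (−0.70 ± 0.13, adjusted p = 0.0149). Fstl1 (0.66 ± 0.16), Bmp1 (0.55 ± 0.11), Bmp2 (0.55 ± 0.11) and Bmp8a (2.21 ± 0.53) were also higher. Smad6 (−1.14 ± 0.23), Gdf15 (−1.01 ± 0.26) and Bmp5 (−0.69 ± 0.17) were also lower. Only the barcodes inside the study's limits gave 4 calls here and 1 in the Esr1-hi HAF.

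Tenocytes, the tendon fibroblasts, gave 3 calls among 41 members, 2 higher and 1 lower, where 1.39% of genes passed, 0.732% higher and 0.662% lower. Chrdl2 was 6.12, 1.45 and 0 CPM in WT and 70.1, 68.2 and 25.2 CPM in Arom cells (4.32 ± 0.62, adjusted p = 0.0156). Nog was 1.22, 8.20 and 4.38 against 23.9, 31.0 and 17.4 CPM (2.18 ± 0.42, adjusted p = 0.0357), and Smad7 was lower, at 162, 105 and 109 against 55.8, 66.4 and 76.6 CPM (−0.98 ± 0.19, adjusted p = 0.0387). Without Arom3 the tenocytes gave 7 calls, without Arom1, Arom2 or WT1 1 call, and without WT2 or WT3 0 calls. No member passed in the Dmkn-hi cells (45 tested, 0.356% of genes called) or the Angptl1/Prg4 cells (43 tested, 0.662%) by edgeR, whereas DESeq2 called 3 members in each. Both shares are those of edgeR, and the shares of all genes called by DESeq2 are not given here. In the Angptl1/Prg4 cells Inhba was 92.0, 52.5 and 34.8 CPM in WT and 47.1, 19.1 and 45.9 CPM in Arom cells, an overlap (adjusted p = 0.469).

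The subgroups also differed in which members they used in both genotypes. Fst was 415 ± 91.9 CPM in Angptl1/Prg4 cells (SD, n = 6 mice) but 38.7 ± 26.1 CPM in Esr1-hi HAF and 36.7 ± 36.8 CPM in tenocytes. In Dmkn-hi cells it was 795, 384 and 579 CPM in WT and 667, 580 and 351 CPM in Arom mice. The Mmp3-hi HAF could not be tested, because only WT1, Arom1 and Arom2 had 10 or more of these cells. Inhba there was 10.2 CPM in the 24 WT1 cells and 550 and 201 CPM in Arom1 and Arom2, and Gdf10 was 209.8 CPM against 23.4 and 35.4 CPM. An unnamed cluster of shallow cells (median 1554 UMIs) was picked because Gdf10 led its genes, so its high Gdf10 level follows from that choice. Gdf10 was 193, 392 and 365 CPM there in WT and 144, 144 and 347 CPM in Arom mice, while Inhba was 15.6, 21.6 and 12.7 against 398, 378 and 71.9 CPM.

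**Figure D3:**
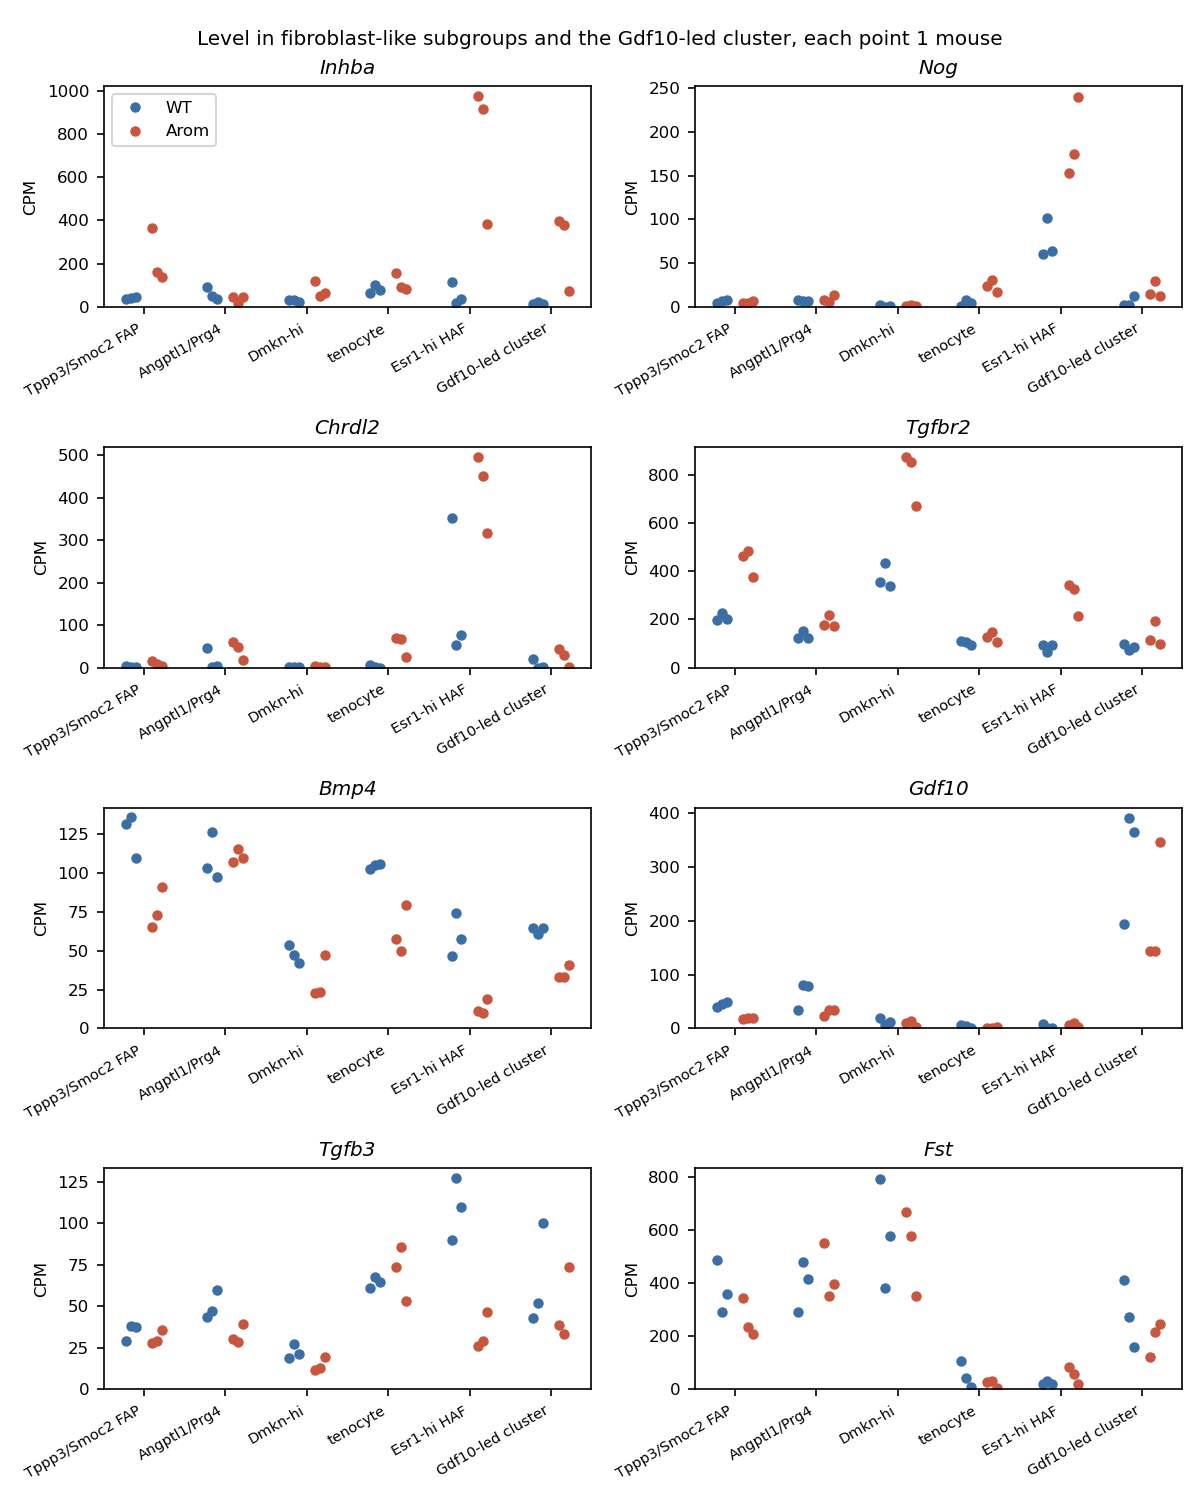
CPM of 8 members in the tested fibroblast subgroups and in the unnamed Gdf10-led cluster, 1 panel per gene with subgroups along the horizontal axis, 1 point per mouse and colours for WT and Arom. Inhba separates the genotypes in Esr1-hi HAF (18.6 to 116.2 CPM in WT, 384 to 973 CPM in Arom) and in FAP (35.5 to 46.9 against 140 to 365 CPM) but overlaps in Angptl1/Prg4 cells.

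Endothelial cells gave 13 calls among 39 members tested, 11 higher and 2 lower in Arom mice, where 14.3% of all genes tested passed (8.33% higher and 6.02% lower). The higher genes again included Inhba, Inhbb and Tgfbr2. Inhba was 0.777, 1.87 and 1.03 CPM in WT and 10.7, 7.48 and 4.21 CPM in Arom cells (2.57 ± 0.39, adjusted p = 0.00655). Inhbb was 24.0, 16.5 and 19.1 against 52.8, 62.5 and 27.0 CPM (1.25 ± 0.27, adjusted p = 0.0173). Tgfbr2 was 41.1, 41.9 and 42.5 against 70.4, 75.2 and 58.9 CPM (0.71 ± 0.11, adjusted p = 0.00696). None of the 3 overlapped between genotypes.

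Several members passed in endothelium that had not passed in fibroblast-like cells. Acvr1b, a type I activin receptor gene, was 13.4, 7.20 and 10.2 CPM in WT and 18.0, 18.8 and 20.6 CPM in Arom cells (0.92 ± 0.21, adjusted p = 0.0219), while the type II receptor gene Acvr2b was lower (−0.73 ± 0.20, adjusted p = 0.0386). Bmp6, the capillary BMP, was 38.1, 55.7 and 41.0 against 20.5, 28.6 and 31.8 CPM (−0.72 ± 0.18, adjusted p = 0.0307). Bmp2 was 9.24, 9.60 and 14.0 against 16.6, 15.9 and 19.1 CPM (0.66 ± 0.19, adjusted p = 0.0422). The receptor SMAD genes Smad3 (1.15 ± 0.29) and Smad5 (0.42 ± 0.12) and the storage gene Ltbp3 (1.28 ± 0.25) were higher. Fstl1, which had passed in fibroblast-like cells as well, was also higher (0.77 ± 0.18). Chrd (1.93 ± 0.45) and Chrdl2 (1.35 ± 0.36) were higher at levels of 0.195 to 0.311 and 0.621 to 0.995 CPM in WT and 0.813 to 1.21 and 1.40 to 2.69 CPM in Arom cells. Both lay near the filter on low counts. Chrd met it only in Arom mice, and Chrdl2 met it in every Arom mouse but not in every WT mouse. Their calls therefore depended on the group where they were higher.

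The make-up of the endothelium differed between genotypes. Capillary cells were 32.8%, 43.1% and 37.0% of endothelial cells in WT and 13.3%, 15.9% and 19.2% in Arom mice, and venular cells were 14.5%, 7.23% and 12% against 41.6%, 30.2% and 28.3%. Bmp6 and Bmp2 are genes whose levels differ between these subtypes, with Bmp2 at 2.13 CPM in capillary and 17.9 CPM in venular cells. Within arterial, capillary or venular cells taken alone, 0 members passed by edgeR, where 0.274%, 0.227% and 1.07% of genes passed. The 13 endothelial calls had the same direction in 9 of 10 that could be tested in arterial cells, 5 of 6 in capillary cells and 9 of 10 in venular cells, with lowest adjusted p values of 0.118, 0.637 and 0.108. Fibroblast marker genes, all 8 detected, summed to 240 to 330 CPM in WT and 458 to 672 CPM in Arom endothelial cells, and all 8 were higher in Arom. Macrophage markers summed to 25.7 to 49.3 CPM and 46.5 to 187.7 CPM. Inhba per 1000 fibroblast marker UMIs was 2.35, 7.71 and 4.27 in WT and 23.3, 15.9 and 6.26 in Arom endothelial cells. Of the 11 higher members, 5 (Tgfbr2, Fstl1, Smad5, Bmp2 and Acvr1b) had a lower mean per marker UMI in Arom than in WT cells, and 6 (Inhba, Inhbb, Smad3, Ltbp3, Chrd and Chrdl2) a higher one. Tgfbr2 was 124, 172 and 177 per 1000 marker UMIs in WT and 154, 160 and 87.6 in Arom cells, Fstl1 was 152, 259 and 315 against 235, 184 and 186, and Smad5 was 99.0, 141 and 142 against 94.5, 114 and 57.3. Means per 1000 marker UMIs were 41.9 in WT and 32.8 in Arom cells for Bmp2, and 37.5 and 36.7 for Acvr1b. In fibroblast-like cells themselves the WT and Arom means were far lower. They were 1.802 and 1.585 for Bmp2, 0.177 and 0.114 for Acvr1b, and 21.0 and 30.3 for Fstl1. A lower mean per marker UMI in Arom endothelial cells therefore does not give the part of fibroblast RNA in a call. The part of these shares and sums in the calls was not tested. Without Arom1, Arom2, WT2, WT1, WT3 or Arom3 the number of calls was 2, 4, 2, 9, 10 and 12, and Tgfbr2 and Inhba passed in all 6. With the replicate number as a block 16 members passed, 13 higher and 3 lower, among them all 13 called without it, where 23.8% of all genes tested passed. Same-numbered mice had correlations of 0.244, 0.163 and 0.328 between their deviations in these cells, and mice of different number −0.224 to −0.003.

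The difference between genotypes was itself compared between the 2 cell types. For 13 of 51 members it differed between fibroblast-like and endothelial cells, where 10.3% of all genes tested did. Tgfb1 differed by 0.63 in fibroblast-like and −0.15 in endothelial cells, a gap of 0.78 ± 0.12 (adjusted p = 0.0104). Acvr1b differed by −0.61 and 0.92, a gap of −1.53 ± 0.15 (adjusted p = 0.00366). Smad6 differed by −1.0 and 0.52 (gap −1.53 ± 0.27, adjusted p = 0.0136) and Bmp4 by −1.34 and −0.10 (gap −1.31 ± 0.24, adjusted p = 0.0149). Nog had the largest positive gap, 1.95 ± 0.37 (adjusted p = 0.0161). Per 1000 fibroblast marker UMIs, Nog was 1.41, 5.78 and 7.115 in WT and 4.395, 3.82 and 2.97 in Arom endothelial cells. The part of fibroblast RNA in its endothelial level was not tested. Inhba, Inhbb and Tgfbr2 were higher in both types and their gaps did not pass. Tgfb1 and Acvr1b passed in all 6 refits without 1 mouse, where the count ran from 2 without Arom1 to 15 without Arom3.

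**Figure D4:**
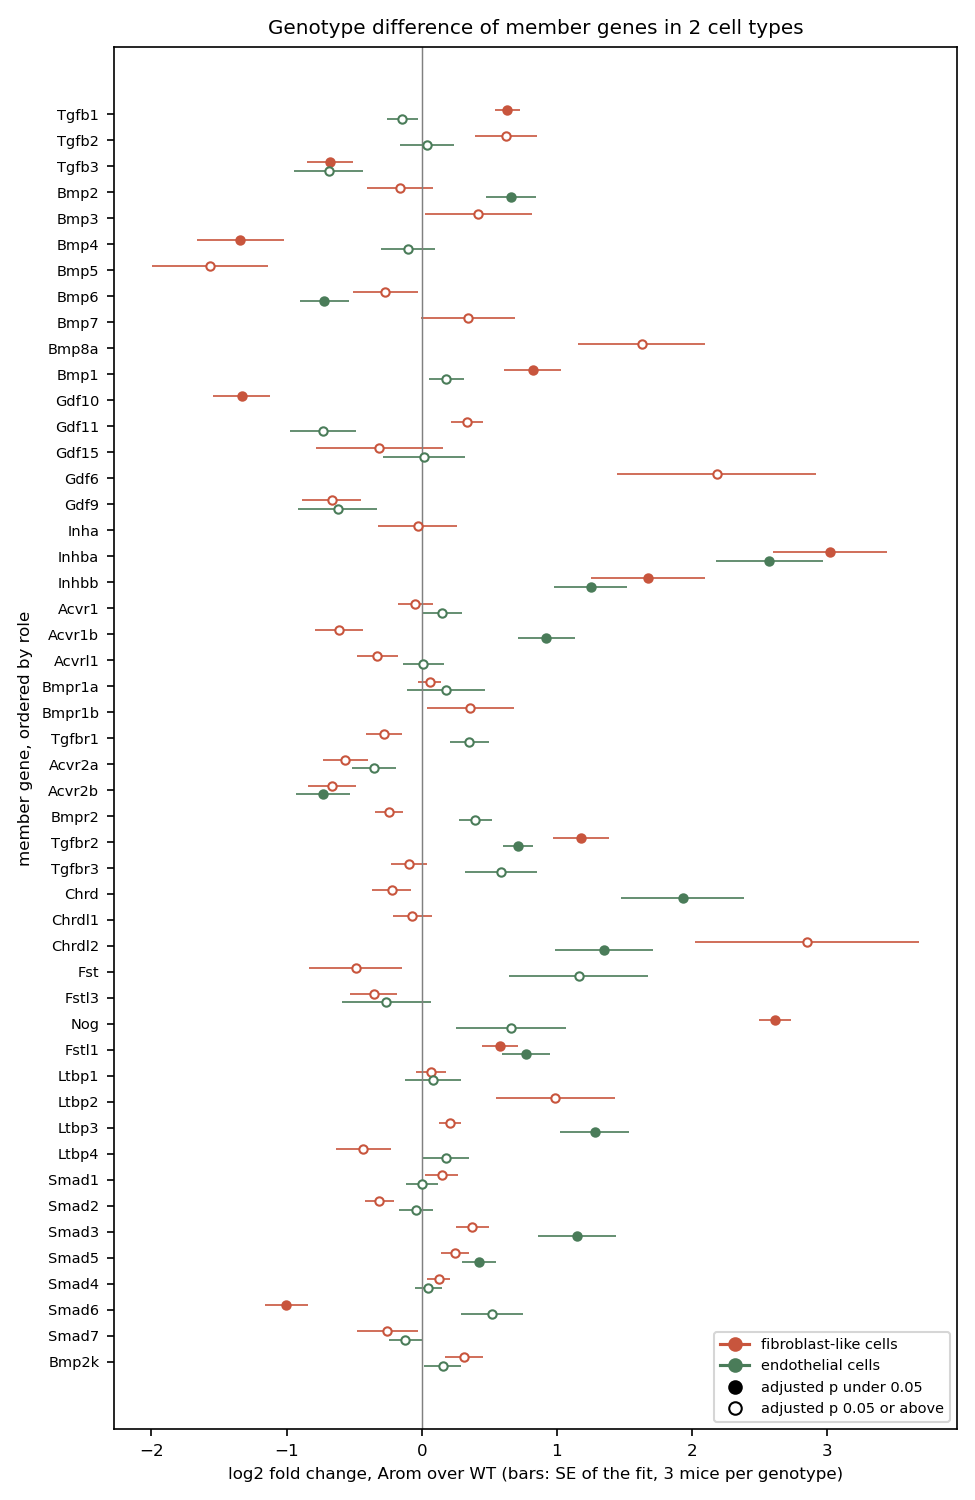
Log2 fold change of Arom over WT (horizontal) for each member (vertical, ordered by role), with 1 point for fibroblast-like and 1 for endothelial cells, bars of the SE, and filled points for adjusted p under 0.05. Inhba lies at 3.02 in fibroblast-like and 2.57 in endothelial cells, Nog at 2.61 and 0.66, and Acvr1b on opposite sides of 0 at −0.61 and 0.92. Grem1, Gdf3 and 1 member not reported here are not drawn.

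In the remaining types 4 or fewer members passed in each. Smooth muscle and pericytes gave 3 calls of 34, all higher, where 1.95% of genes passed and 1.51% were higher. Fstl1 was 174, 229 and 190 CPM in WT and 511, 454 and 396 CPM in Arom cells (1.13 ± 0.16, adjusted p = 0.018). Bmp1 was 38.6, 34.8 and 45 against 90.9, 103 and 65.7 CPM (1.06 ± 0.18, adjusted p = 0.0235), and Tgfbr2 was 39.1, 42.0 and 32.7 against 90.4, 104.2 and 53.8 CPM (1.05 ± 0.22, adjusted p = 0.0392). The same 3 genes passed in contractile smooth muscle alone (2.06% of genes) and 0 members in pericytes alone (0.223%). Fibroblast markers summed to 2601 to 4141 CPM in WT and 4686 to 6987 CPM in Arom smooth muscle and pericytes. Leaving out Arom3 gave 6 calls and leaving out any other mouse gave 0.

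MuSC/myoblast cells, the regenerative cells of muscle, gave 4 calls of 32, 3 higher and 1 lower, where 2.2% of genes passed, 1.25% higher and 0.951% lower. Tgfb1 was 36.7, 23.5 and 33.7 CPM in WT and 70.9, 79.4 and 60.7 CPM in Arom cells (1.08 ± 0.17, adjusted p = 0.0262). Bmp6 was 36.2, 35.1 and 28.0 against 69.7, 59.8 and 56.0 CPM (0.79 ± 0.16, adjusted p = 0.0397), opposite to its direction in endothelium. Tgfbr2 was 33.0, 27.2 and 25.2 against 73.9, 117 and 49.0 CPM (1.39 ± 0.25, adjusted p = 0.0295). Ltbp1, a latent TGF-beta store, was lower, at 63.2, 78.1 and 74.0 against 28.7, 24.3 and 44.3 CPM (−1.26 ± 0.24, adjusted p = 0.0353). All 4 genes separated the genotypes. Fibroblast markers summed to 459 to 753 CPM in WT and 1222 to 4072 CPM in Arom MuSC/myoblast cells, and Tgfbr2 per 1000 of their UMIs was 43.8, 59.1 and 46.7 in WT and 28.2, 28.7 and 40.1 in Arom cells. The MuSC/myoblast markers themselves summed to 2339 to 4181 CPM in WT and 1511 to 2308 CPM in Arom cells, smooth muscle and pericyte markers to 495 to 659 and 1005 to 1417 CPM, and glial markers to 32 to 53.2 and 6.72 to 22.8 CPM. The part of these sums in the calls was not tested. With the replicate number as a block 11 members passed. Calls numbered 11 without Arom3, 3 without WT1 and 0 without any of the other 4 mice. The shares of all genes passing in the blocked fit and in these refits are not given here.

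Inhba passed in macrophages and in glial cells as well. In macrophages, which gave 2 calls of 29, both higher (0.474% of genes passed, 0.436% higher and 0.0384% lower), Inhba was 13.4, 14.8 and 2.17 CPM in WT and 86.0, 79.4 and 61.7 CPM in Arom cells (2.69 ± 0.36, adjusted p = 0.0167). Fstl1 was 51.1, 74.5 and 39.1 against 211, 255 and 166 CPM (1.88 ± 0.28, adjusted p = 0.0256). Fibroblast markers summed to 775 to 4407 CPM in WT and 6771 to 8681 CPM in Arom macrophages. Per 1000 of those marker UMIs, Inhba was 3.82, 3.35 and 2.80 in WT and 12.7, 10.3 and 7.10 in Arom macrophages, and 1.19, 1.04 and 0.990 against 11.0, 9.70 and 4.07 in fibroblast-like cells themselves. Fstl1 per 1000 marker UMIs was 14.6, 16.9 and 50.4 against 31.1, 32.9 and 19.1 in macrophages. In glial cells, with 1 call of 37 (0.511% of genes), Inhba was 25.4, 38.7 and 42.3 CPM in WT and 270.1, 189.9 and 88.8 CPM in Arom cells (2.26 ± 0.33, adjusted p = 0.0188), beside marker sums of 8777 to 10610 CPM and 11620 to 13380 CPM. The part of fibroblast RNA in these calls was not tested. Without 1 mouse the macrophages gave 0 to 2 calls, with 0 only without Arom2, and the glial cells 0 to 2, with 0 without Arom1 or WT2. With the replicate number as a block the macrophages gave 3 calls and the glial cells 5.

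T cells and myonuclei gave 1 call each. Ltbp4 in T cells was 29.3, 23.8 and 0 CPM in WT and 121, 129 and 94.4 CPM in Arom cells (2.32 ± 0.42, adjusted p = 0.0435), where 0.981% of genes and 1 of 8 members passed. Fibroblast markers in T cells ranged over 214 to 5596 CPM in WT and 4765 to 22450 CPM in Arom mice, and Ltbp4 per 1000 of their UMIs was 6.94, 111 and 0 against 5.38, 8.13 and 19.8. In myonuclei, the cluster with muscle fibre genes, Bmp4 was 25.5, 34.2 and 34.6 CPM in WT and 7.76, 8.76 and 9.48 CPM in Arom cells (−1.92 ± 0.27, adjusted p = 0.0257), where 0.306% of genes (0.0932% higher and 0.213% lower) and 1 of 29 members passed. Bmp4 thus fell in myonuclei as in fibroblast-like cells, beside fibroblast marker sums of 2427 to 6305 CPM in WT and 2676 to 8715 CPM in Arom mice. Without Arom3, T cells gave 7 calls and myonuclei 3, and without any of the other 5 mice neither gave a call. With the replicate number as a block 5 members passed in myonuclei and 0 in T cells.

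By edgeR 0 members passed in mesothelial cells (45 tested, 0.283% of genes called, 0.249% higher and 0.0343% lower), in dendritic cells (23 tested, 0%) and in lymphatic endothelial cells (24 tested, 0%). DESeq2 called 6 members in mesothelial cells and 0 in each of the other 2 types, and edgeR with the replicate number as a block called 5 in mesothelial cells and 0 in the other 2. The shares of all genes called by DESeq2 and by the blocked fit are not given here. In dendritic and lymphatic cells 420 and 528 of all genes had an unadjusted p under 0.05.

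Other genes of the pathway were counted from lists made by role. In fibroblast-like cells, 10 of 27 TGF-beta and activin target genes were higher and 1 was lower, with a median difference of 0.72, and 1 of 14 BMP target genes tested was higher and 4 were lower, with a median of −0.44. Over all genes 7.14% were higher and 5.76% lower, with a median of 0.0001. The first list includes Col1a1, Col1a2 and Col3a1, which also served to name these cells. From these same cells the study had reported Timp1, Postn, Cthrc1 and Col3a1 as higher in Arom fibroblast-like cells. It had also reported Col1a1 and Col1a2 as higher in Arom Mmp3-hi HAF. The counts of higher targets in fibroblast-like cells and their subgroups are therefore not independent of the study's own result. Timp1, a protease inhibitor, was 156, 162 and 149 CPM in WT and 1488, 966 and 398 CPM in Arom mice (2.62 ± 0.46, adjusted p = 0.0242). Pmepa1, a negative regulator induced by TGF-beta, was 731, 613 and 647 against 1645, 1556 and 1377 CPM (1.19 ± 0.16, adjusted p = 0.0193). Both separated the genotypes, with Arom3 lowest of the Arom mice. The matrix genes Postn (1.28 ± 0.21), Tnc (1.6 ± 0.32) and Col5a1 (0.94 ± 0.16) rose, and the cell cycle inhibitor Cdkn1a fell (−0.87 ± 0.16, adjusted p = 0.0262).

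The BMP targets that fell were the inhibitor of differentiation genes Id3 and Id4, the pseudoreceptor Bambi and the transcription factor Hey1. Id3 was 1885, 1726 and 2029 CPM in WT and 1129, 1062 and 1123 CPM in Arom mice (−0.78 ± 0.13, adjusted p = 0.022). Bambi, which also stands in the antagonist list, was 75.0, 69.3 and 76.1 against 21.7, 22.2 and 32.5 CPM (−1.55 ± 0.15, adjusted p = 0.0122). Neither overlapped between genotypes. Id4 differed by −1.12 ± 0.28 and Hey1, at 2.48 CPM or less in every mouse, by −1.80 ± 0.38. Tmem100, an ALK1 target, was the 1 BMP target that rose (0.76 ± 0.13, adjusted p = 0.0246). In the Esr1-hi HAF 0 of 14 BMP targets were higher and 6 lower (median −0.89), and 7 of 26 TGF-beta and activin targets were higher and 5 lower (median 0.35), where 6.28% of all genes tested were higher and 7.15% lower. The 5 lower targets were Ctgf, Cyr61, Tgfbi, Scx and Cdkn1a. In the FAP 0 of 11 BMP targets were higher and 3, Id1, Id2 and Bambi, were lower (median −0.55). There 11 of 25 TGF-beta and activin targets were higher and 4, Snai1, Comp, Tgfbi and Cdkn1a, were lower (median 0.33), where 3.11% of all genes tested were higher and 2.55% lower. In endothelial cells 0 of 12 BMP targets were higher and 5, Id2, Id4, Msx1, Hey1 and Bambi, were lower (median −0.35). There 12 of 27 TGF-beta and activin targets were higher and 1, Cyr61, was lower (median 0.66), where 8.33% of all genes tested were higher and 6.02% lower, beside the difference in fibroblast marker sums given above. In arterial, capillary and venular cells taken alone, 0 of 12, 0 of 10 and 0 of 10 BMP targets passed in either direction. Their medians were −0.40, 0.14 and 0.26. The sign in capillary and venular cells differed from that of the pooled endothelium. Fewer genes were tested in them than in the pool, so these medians cover different genes. Of the TGF-beta and activin targets, 1 of 23, 4 of 22 and 7 of 25 were higher in arterial, capillary and venular cells and 0 lower. Their medians were 0.93, 0.50 and 0.61, where 0.164%, 0.176% and 0.708% of all genes were higher. The part of the different shares of these subtypes in the pooled counts was not tested. The genes of these small counts were named after their values were seen.

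**Figure D5:**
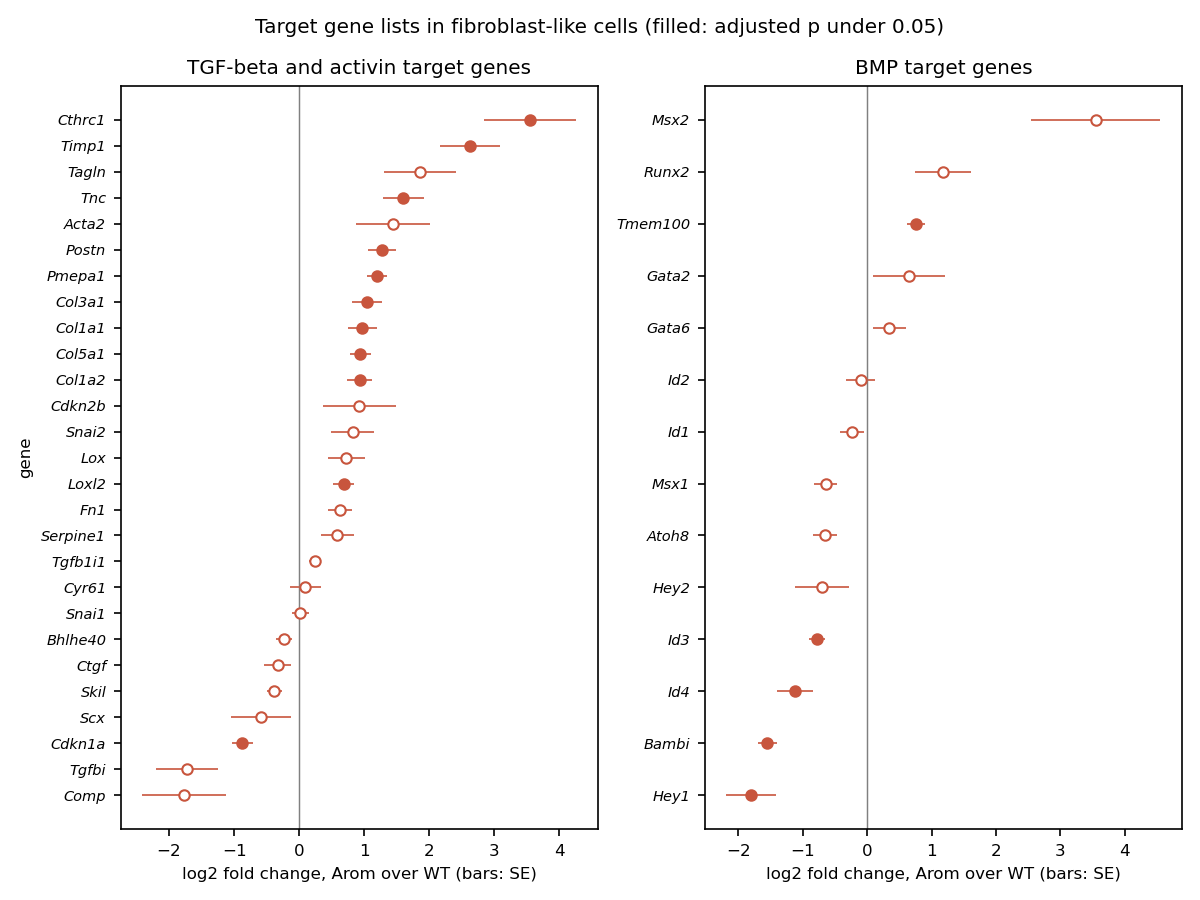
Log2 difference of Arom over WT in fibroblast-like cells with bars of 1 SE for the genes of the TGF-beta and activin target list and of the BMP target list, with filled points for adjusted p under 0.05. Timp1 at 2.62 and Pmepa1 at 1.19 lie to the right in the first list, and Bambi at −1.55 and Id3 at −0.78 lie to the left in the second.

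Genes that store or release latent TGF-beta were mixed. Of 22 tested in fibroblast-like cells, 6 were higher and 2 lower (median 0.35), where 7.14% and 5.76% of all genes were. Fbn1, which encodes the fibrillin that holds latent complexes, was 593, 751 and 693 CPM in WT and 1202, 1060 and 1411 CPM in Arom mice (0.84 ± 0.13, adjusted p = 0.021). Thbs2 (1.2 ± 0.28), Mmp2 (0.76 ± 0.18) and the integrin gene Itgb3 (0.92 ± 0.13) were higher and the integrin gene Itgb8 was lower (−0.78 ± 0.17). Fbn2 was the sixth higher gene and Dcn, which also served to name these cells, the second lower gene, both named after their values were seen. Mmp9 rose from 0.0319, 0 and 0 CPM to 4.15, 3.90 and 0.493 CPM. Of 12 further antagonists tested, 2 were higher and 2 lower, with the protease genes Htra1 (1.15 ± 0.21) and Htra3 (0.48 ± 0.12) higher and Bambi and Sostdc1 (−2.04 ± 0.47) lower. Of 6 other ligand and receptor genes and 14 intracellular regulators tested, 0 passed in either direction by edgeR. In endothelial cells 11 of 19 storage and release genes were higher and 1, Itgb5, was lower (median 0.90), and 3 of 14 intracellular regulators, Smurf1, Tgif1 and Nedd4l, were higher, where 8.33% of all genes tested were higher and 6.02% lower. Fibroblast markers, which include matrix genes, summed to 240 to 330 CPM in WT and 458 to 672 CPM in Arom endothelial cells, and their part in these counts was not tested. In arterial, capillary and venular cells taken alone, 1 of 17, 2 of 17 and 2 of 19 storage and release genes were higher and 0 lower (medians 0.56, 0.39 and 0.45), and 0 of 14 intracellular regulators passed in each.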

How the data were processed

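LAM tissue was dissociated and 10x Genomics 3′ libraries were made, 1 for each of 6 mice. The authors aligned reads with Cell Ranger 3.0.2 to mm10 with human CYP19A1 added and deposited 1 table of raw UMI counts for 16494 genes. How its genes were filtered is not given in the sources used here. All 63647 barcodes were used, of which 18852 were inside the limits the methods give (200 to 2500 genes, at least 1000 UMIs, at most 5% mitochondrial UMIs). The study also removed outliers by a cut-off of 3 median absolute deviations, on measures that are not given in the sources used here, and this was not applied. Depth per library was 64958237 to 111826460 UMIs, and for each cell type the UMI sum limits which members can be tested. Counts were scaled to 10000 per barcode and log transformed. Barcodes were clustered (scanpy 1.11.5, leidenalg 0.10.2, 2000 variable genes without the members, 30 components, 20 neighbours, resolution 0.8) into 34 clusters, named from marker lists, and fibroblast-like cells were clustered again into 19. Clusters that detected another type's markers in at least 25% of cells for at least 50% of the list were left unnamed as mixed (4301 barcodes), a rule set after the data were seen, and 1146 more were unnamed. Doublets were scored per library with Scrublet, whose automatic threshold marked 0 barcodes in the WT libraries, so the highest scores (6.01% to 10.4% of barcodes) were marked, kept here and removed in an alternative. Coordinates are from GRCm38.

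UMIs were summed per mouse and type and fitted with edgeR 4.0.16 in R 4.3.3 (TMM, filterByExpr, quasi-likelihood test, genotype as the only term, Benjamini-Hochberg, threshold 0.05), after the code was tested on simulated data. Mice with under 10 cells of a type were left out. The SE is the log2 difference divided by the square root of F. A fit with mouse, cell type and their interaction with genotype compared fibroblast-like with endothelial cells. Alternatives were DESeq2 1.42.0, other size factors, no filter, the study's limits, doublet removal, other resolutions, the replicate number as a block and leaving out each mouse. Mixed clusters kept, column blocks of the table in place of clusters, and vascular subtypes alone were added after seeing the data. Labels call the samples separate tissues, and the methods give 1 WT and 1 Arom littermate per harvest date without tying dates to numbers. Members named in the text are those called in any type or subgroup, a fixed list, the 3 highest members in each type, and at most 6 called genes with the lowest adjusted p in each pathway list. The members, lists and rules were chosen with earlier results of these data known. The values of 1 fixed member are not reported here.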

Additional observations from a re-analysis of the deposited data

Results flagged for a closer look

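For 13 members the difference between Arom and WT mice itself differed between fibroblast-like and endothelial cells, by edgeR's test of the interaction within mice. Each value below is the log2 difference in fibroblast-like cells minus that in endothelial cells. It was above 0 for Nog (1.95 ± 0.37 SE), Gdf11 (1.06 ± 0.23), Tgfb1 (0.78 ± 0.12) and Bmp1 (0.61 ± 0.15, but −0.26 with mixed clusters kept). It was below 0 for Chrd (−2.13 ± 0.38), Acvr1b (−1.53 ± 0.15), Smad6 (−1.53 ± 0.27), Bmp4 (−1.31 ± 0.24), Ltbp3 (−1.08 ± 0.24), Bmp2 (−0.87 ± 0.23), Bmpr2 (−0.65 ± 0.13), Tgfbr1 (−0.64 ± 0.12) and Ltbp4 (−0.59 ± 0.15). Gdf11, Bmpr2, Ltbp4 and Tgfbr1 passed the test in neither type alone. Gdf11 differed by 0.34 in fibroblast-like and −0.73 in endothelial cells, Bmpr2 by −0.24 and 0.40, Ltbp4 by −0.43 and 0.18, and Tgfbr1 by −0.28 and 0.35. Over all genes tested 10.3% differed between the types. Chrd had a low endothelial level in both genotypes, as given above. Per 1000 fibroblast marker UMIs it was 0.941, 1.205 and 0.813 in WT and 2.64, 2.23 and 1.21 in Arom endothelial cells, and the part of fibroblast RNA was not tested. Capillary cells were 32.8% to 43.1% of endothelial cells in WT and 13.3% to 19.2% in Arom mice, and the part of that share in these values was not tested.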

How the results depend on the processing

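Depth, cell numbers and 3 mice per genotype limit these results, since many barcodes of both genotypes lie outside the study's limits, the Esr1-hi HAF hold few WT cells, and the Mmp3-hi HAF and T cells inside the limits could not be tested. Adjusted p values from 3 mice against 3 moved widely, so counts are given as ranges. The causes of the changes below were not tested. The counts below stand without the share of all genes called in the same fit. They describe the fits and are not a result about the members.

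With the study's limits the counts of members called were 0 in fibroblast-like cells, 8 in endothelial cells, 1 in Esr1-hi HAF, 4 in FAP, 5 over all fibroblast subgroups, 9 over all other cell types and 0 for the interaction. Without the upper limit on genes the other cell types gave 10. The main counts over all subgroups and over all other types were 29 and 25. DESeq2 called 19 members in fibroblast-like cells and 45 over the subgroups. No filter on low counts gave 47 over the other types. Leaving out both HAF subgroups gave 5 in fibroblast-like cells. At resolution 0.4 the subgroups gave 14 calls and the Esr1-hi HAF 0, and at resolution 1.2 the FAP gave 3. At resolution 0.4 macrophages and dendritic cells gave no value. Leaving out 1 mouse gave 1 to 27 calls in fibroblast-like cells, 2 to 12 in endothelial cells, 5 to 19 in Esr1-hi HAF, 3 to 13 in FAP, 11 to 51 over the subgroups, 3 to 60 over the other types and 2 to 15 for the interaction.

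The 3 correlations between the deviations of same-numbered WT and Arom mice were all above 0 in 10 of 16 cell groups. They were all above 0.1 only in endothelial cells (0.163 to 0.328) and myonuclei (0.104 to 0.233) and not in fibroblast-like cells (0.198, −0.119 and 0.169). Mice of different number had correlations of −0.224 to −0.003 in endothelial cells, −0.216 to 0.089 in myonuclei and −0.298 to 0.241 in fibroblast-like cells. In MuSC/myoblast cells, macrophages, smooth muscle and pericytes, and tenocytes, every same-numbered value also exceeded every different-numbered one. The sources do not tie numbers to harvest dates. The main fits therefore have no pairing, and whether the numbers mark one was not settled. With the replicate number as a block, the counts were 14 in fibroblast-like cells, 16 in endothelial cells, 18 in Esr1-hi HAF, 17 in FAP, 51 over the subgroups and 48 over the other types, among them 11 in MuSC/myoblast cells, 5 in myonuclei, 5 in glial cells and 5 in mesothelial cells.

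In fibroblast-like cells, log2 differences changed sign with the study's limits for Bmp2 (0.16), Chrdl1 (0.0984), Bmp6 (0.47), Fst (0.0526) and Ltbp2 (−0.85), without the upper limit on genes for Chrdl1 (0.0778) and Bmp6 (0.0423), and without the HAF subgroups for Inhbb (−0.28), Bmp2 (0.24), Tgfbr3 (0.0044), Bmp6 (0.36) and Acvrl1 (0.0101). Leaving out 1 mouse gave −0.48 to 0.0626 for Bmp2 and −0.0299 to 0.15 for Ltbp1, with the sign changed without Arom2, −0.16 to 0.0584 for Tgfbr3 and −0.39 to 0.0428 for Smad7, changed without WT1, and −0.18 to 0.049 for Chrdl1, changed without WT3. The interaction value of Bmp1 became −0.26 with mixed clusters kept. The 79 differences called gave 472 values when 1 mouse was left out, of which 195 stayed past the threshold and 277 did not, and 812 values under other alternatives, of which 665 stayed past it, 145 did not and 2 changed sign.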
